A study of Drosophila melanogaster with 6 samples.

Results

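The cytoplasmic ribosomal protein genes of Drosophila melanogaster were taken as all genes in the deposited count table whose symbol began with RpL, RpS or RpLP followed by a number, which leaves out the mitochondrial ribosomal proteins (mRpL and mRpS). This gave 92 of the 17807 genes in the table, 54 named for the large subunit and 38 for the small subunit. The name rule misses Rack1 and sta, which encode small-subunit proteins under other symbols, and it takes in a few relatives of ribosomal proteins that act in ribosome assembly. Whole brains were dissected from pupae 24 h after puparium formation, and poly(A) RNA was sequenced in stranded libraries, 3 from WT and 3 from TetAXXC pupae, which the labels call independent biological replicates. WT was wild type, with no further stock name in the labels. TetAXXC carried a mutated CXXC zinc finger in the Tet gene. The mutation was made with 2 guide RNAs, Cas9 and a repair template in the nos-Cas9 stock, in which the germline nos promoter drives Cas9. After further crosses, the DsRed marker used for screening was excised with a piggyBac recombinase stock. The labels give 30 brains per genotype and do not say how these were divided among libraries, so p-values measure the spread between these libraries.

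A ribosome is built from ribosomal RNA and one copy of nearly every ribosomal protein, so the genes of both subunits are transcribed together at high and similar levels in growing cells. In the fly, loss of a single gene copy of many members gives the Minute phenotype of slow development and thin bristles. Several proteins are encoded by a pair of genes, of which one is used in most tissues and the other mainly in the germ line.

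Library totals lay between 17861742 and 19521285 counts. Levels are given as CPM, the normalised read count after TMM scaling of each library, and levels of different genes are compared only per kilobase of exon. A difference was called at an adjusted p under 0.05 in edgeR's quasi-likelihood test, fitted to the 11198 genes with enough counts and adjusted over all of them by the Benjamini-Hochberg method. Of 12 neuronal marker genes tested, edgeR called 0 (2 at an unadjusted p under 0.05), DESeq2 called 1, nSyb, and limma-voom called 0, and their summed level was 4546 to 5629 CPM in WT and 4799 to 5666 CPM in TetAXXC. Of 9 glial markers 5 were lower in TetAXXC, and the sum of the 9 was 1301 to 1313 CPM in WT and 1055 to 1116 CPM in TetAXXC. The lower ones were Gs2, Gat, alrm, moody and wrapper, with log2 fold changes of -1.945, -1.546, -1.099, -0.236 and -0.198. The others, repo, nrv2, loco and Eaat1, were not called, with values of -0.001, 0.063, 0.047 and 0.077. Of 8 neuroblast markers tested 1 was higher, of 8 fat body markers 2 were lower, of 8 hemocyte markers 2 were higher, and of 9 muscle markers 0 were called or had an unadjusted p under 0.05 in edgeR, DESeq2 or limma-voom. With the replicate number as a block, 3 neuroblast markers were higher, 4 fat body markers were lower, and 1 muscle marker, Act88F, named after its values were seen, was lower. Of 35 testis markers tested, 29 were higher in TetAXXC, from a list written with earlier results of these libraries known. Several of them passed the filter on low counts only through TetAXXC, so their count is no measure of how often testis genes rose. Over all genes tested, 12.1% were called higher and 3.17% lower, and with the block 15.8% and 5.31%. The part of these cell types in the results below was not tested.

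The ribosomal protein genes together took 5.82%, 6.45% and 5.88% of all counts in WT replicates 1, 2 and 3. In TetAXXC they took 5.96%, 6.34% and 5.66%. The ranges of the groups overlapped, with means of 6.05 ± 0.347% in WT and 5.99 ± 0.340% in TetAXXC (SD, n = 3 each). Replicate 2 was the highest library in both genotypes. The widest 95% Wilson interval of a single library spanned 0.0226 percentage points, so counting error was far smaller than the spread between replicates. Large-subunit genes took 3.61 ± 0.200% of counts in WT and 3.56 ± 0.198% in TetAXXC, and small-subunit genes took 2.44 ± 0.146% and 2.43 ± 0.142%.

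Of the 92 members, 83 averaged 4 log2 CPM or more, and most of these lay close together per kilobase, while the lowest stood at 23.1 CPM per kilobase. Their median level was 812 CPM per kilobase, against 11.7 CPM per kilobase over all genes tested. The 10th and 90th percentiles were 400 and 1193 CPM per kilobase, a ratio of 2.98. Among the 100 genes with the highest level per kilobase in these brains, 56 were ribosomal protein genes. The order was led by RpL41, the shortest protein of the large subunit, at 2359 ± 259 CPM per kilobase in WT and 2460 ± 149 in TetAXXC (SD, n = 3 each). RpL23 of the large subunit followed at 1870 ± 126 and 1761 ± 95.8 CPM per kilobase. RpS27A, which is made as a fusion with ubiquitin, stood at 1667 ± 151 and 1640 ± 104 CPM per kilobase, and its libraries overlapped those of RpL23 in both genotypes. RpLP2 and RpS15 completed the top 5 with means over the 6 libraries of 1563 and 1362 CPM per kilobase. RpL40, the other ubiquitin fusion, was at place 25 with 988 CPM per kilobase, and RpS6, the substrate of S6 kinase, at place 33 with 873. For the shortest genes the figure per kilobase depends most on the annotated ends, since RpL41 has 320 bases of exon and RpL39 has 288.

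**Figure D1:**
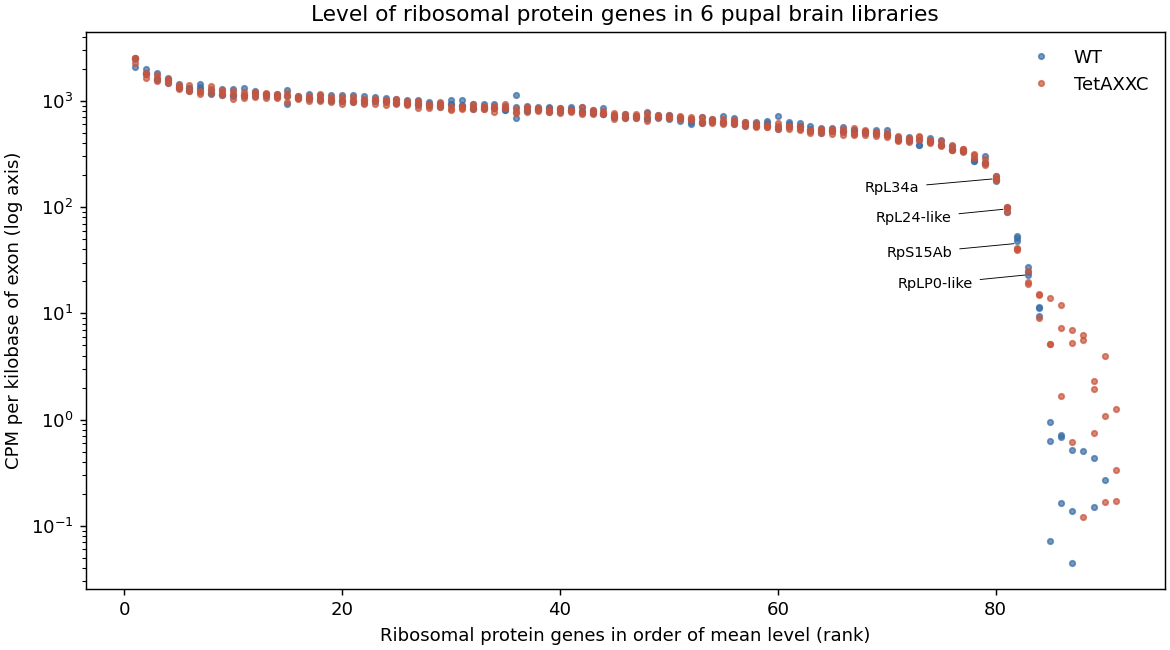
Level of each ribosomal protein gene with counts, in CPM per kilobase of exon on a log axis, against its place in the order of mean level, with 1 point for each of the 3 WT and 3 TetAXXC libraries; libraries at 0 counts are not drawn. The first 78 places fall from 2409 to 290 CPM per kilobase with the genotypes on top of each other, and the points of the 2 genotypes part among the last places, held by low paralogs.

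Below this plateau the order dropped over few places. RpS14b stood at 270 CPM per kilobase, RpL34a at 185, RpL24-like at 96.0, RpS15Ab at 45.5 and RpLP0-like at 23.1. RpL24-like and RpLP0-like are relatives of yeast proteins that act in assembly of the large subunit and are not parts of the finished ribosome. The last 8 members were RpL10Aa, RpS19b, RpL22-like, RpL37b, RpS28-like, RpS10a, RpS28a and RpL7-like, at 4.29 CPM per kilobase or less. RpL7-like was at 0 counts in every library. Of its exon bases, 98.8% lie inside another gene on the same strand, CG34164, so its 0 says nothing of its transcription.

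The genotype difference of the abundant members was small. Among the 83 members with at least 4 log2 CPM, log2 fold changes (TetAXXC over WT) ran from -0.35 to 0.18. Their median was -0.024, with a median standard error of 0.057, and the median over all 6320 genes at that level was -0.019. The median size of the members' values, without sign, was 0.030, against 0.068 over those 6320 genes. Of the 83, 74 (89.2%) lay within 0.1 of 0, against 64.8% of those 6320 genes. A negative value was found for 63 (75.9%), against 58.1% of those genes. By subunit, the median was -0.027 over 50 large-subunit members, 40 of them negative, and -0.015 over 33 small-subunit members, 23 of them negative. These counts are descriptions, since the members are measured in the same libraries and move together in them. Over the 87 members tested, the median of -0.023 turned to 0.017 without WT replicate 2 and to 0.018 without TetAXXC replicate 3, and it was -0.087 without TetAXXC replicate 2.

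**Figure D2:**
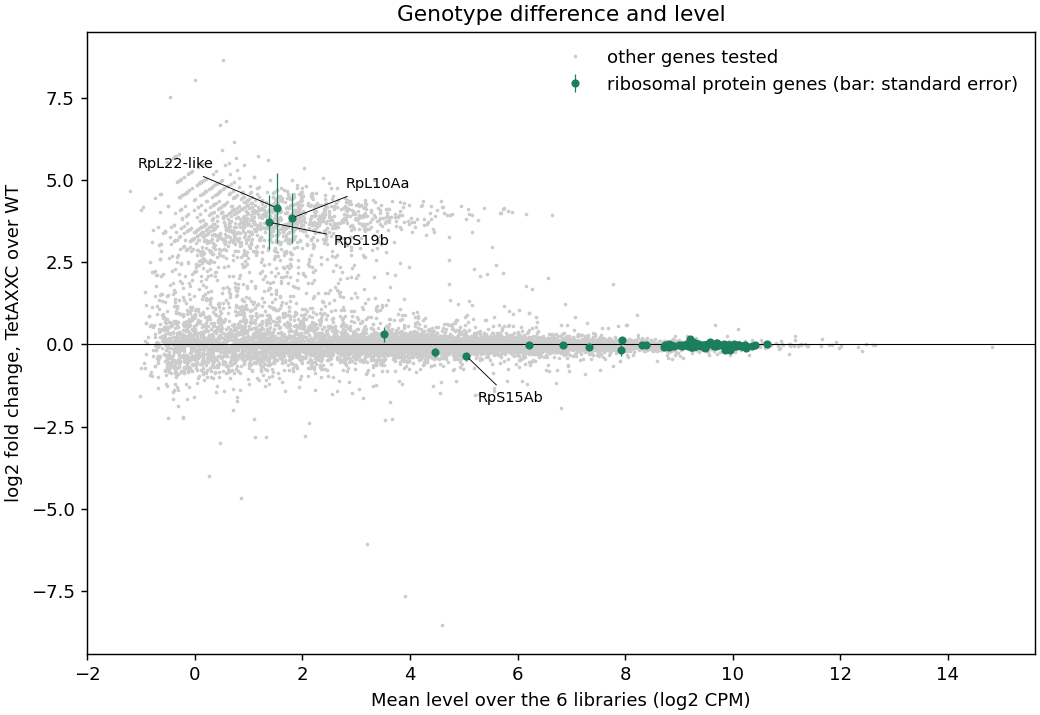
log2 fold change of TetAXXC over WT against mean log2 CPM for the 11198 genes tested (grey) and the 87 ribosomal protein genes among them (green, with standard errors). The 83 members at 4 log2 CPM or more form a band between -0.35 and 0.18, and RpL10Aa, RpL22-like and RpS19b stand apart at low level with log2 fold changes of 3.72 to 4.15.

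Of the 87 members tested, 3 were called higher in TetAXXC (RpL10Aa, RpL22-like and RpS19b), where 12.1% of all genes tested were higher. A single member was called lower, 1 of 87 (RpS15Ab), where 3.17% of all genes were lower. At an unadjusted p under 0.05 there were 8 of 87 members. The share of all genes at that level was not counted, but 1707 of the 11198 passed even the adjusted threshold. With limma-voom, which called 130 genes in all, none of the 4 was called, at an adjusted p of 0.0563 for RpS15Ab and 0.134 to 0.386 for the others. The replicate numbers were taken to pair the libraries, a pairing inferred from these same counts, and results with the block rest on it. With the replicate number as a block 5 members were higher and 3 lower, where 15.8% and 5.31% of all genes were. The block added RpL28 and RpS21 to the higher members and RpL15 and RpLP1 to the lower ones. These 4 were also called by DESeq2 and, without the block, by edgeR with each library's trend on gene length removed. The groups did not overlap for 5 members above WT and 3 below, the same 8 genes, where 20.4% and 12.4% of all genes were so separated. The 3 members called higher passed the filter on low counts only through TetAXXC, so that their counts are no measure of how often ribosomal protein genes rose. In RNA from whole brains, a different number of cells of a type and a different amount of RNA per cell cannot be told apart.

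RpS15Ab (FBgn0033555, chromosome 2R, 10821676 to 10822399, plus strand, release 6 coordinates as deposited) is the lower-level gene of the pair that encodes the small-subunit protein RpS15A. It was counted at 34.9, 38.8 and 37.2 CPM in WT replicates 1 to 3 and at 28.3, 28.9 and 29.7 CPM in TetAXXC. Every TetAXXC library lay below every WT library, and the spread within TetAXXC was narrow. The means were 37.0 ± 1.96 and 29.0 ± 0.720 CPM (SD, n = 3 each), and the log2 fold change was -0.35 with a standard error of 0.06 (edgeR, adjusted p = 0.0177). The adjusted p rose to 0.0832 without WT replicate 2 and 0.0683 without WT replicate 3, while the log2 fold change stayed between -0.39 and -0.32 whichever library was left out. The main gene of the pair is RpS15Aa on the X chromosome, whose WT mean was 618 ± 50.9 CPM and whose TetAXXC mean was 599 ± 27.7 CPM, with a log2 fold change of -0.04 (edgeR, adjusted p = 0.773). Per kilobase, RpS15Ab made up 7.12%, 6.97% and 7.68% of the pair in WT and 5.88%, 5.64% and 6.30% in TetAXXC. These shares did not overlap. How reads that match both genes were counted is not given in the sources used here, so the values of close paralogs are uncertain to that degree.

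RpL15 (chromosome 3L, 27267255 to 27268445, plus strand), a large-subunit gene in the heterochromatin near the centromere, was at 940, 1046 and 952 CPM in WT replicates 1 to 3. It was at 859, 904 and 842 CPM in TetAXXC. All 3 TetAXXC libraries were below the lowest WT library. The log2 fold change was -0.17 with a standard error of 0.06. With genotype alone in the fit the difference was not called (edgeR, adjusted p = 0.0907, and 0.00990 with the block). It was called without the block where the length trend was removed (edgeR, adjusted p = 0.0195). Of its exon bases, 6.7% are shared with a small nucleolar RNA (snoRNA) gene on the same strand.

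RpLP1 (chromosome 2L, 419952 to 420864, plus strand) encodes an acidic protein of the ribosomal stalk, the lateral arm that recruits elongation factors. It stood at 997, 1108 and 1025 CPM in WT and 929, 960 and 889 CPM in TetAXXC. The groups did not overlap, and within each genotype replicate 2 was again the highest. Its log2 fold change was -0.17 with a standard error of 0.06 (edgeR, adjusted p = 0.0913, and 0.0142 with the block). Its partners in the stalk differed less between genotypes than between replicates. RpLP2 averaged 951 ± 51.9 CPM in WT against 937 ± 47.1 CPM in TetAXXC, and RpLP0, which anchors the stalk, averaged 870 ± 25.9 and 853 ± 36.9 CPM (edgeR, adjusted p = 0.881 and 0.798). Whether RpLP1 differed from RpLP2 in its response was not tested.

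RpL28 (chromosome 3L, 3220911 to 3222960, minus strand), a large-subunit gene with 5 snoRNA genes inside it, was at 536, 586 and 535 CPM in WT. It was at 633, 650 and 588 CPM in TetAXXC. The lowest TetAXXC library, replicate 3, lay just above the highest WT library, replicate 2, while each TetAXXC library was above the WT library of its own number. The log2 fold change was 0.18 with a standard error of 0.06 (edgeR, adjusted p = 0.0930, and 0.0110 with the block). On the same strand, 4.4% of its exon bases are shared with snoRNA genes.

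RpS21 (chromosome 2L, 2856070 to 2857029, plus strand) encodes a small-subunit protein; fly mutants of it overgrow their blood-forming tissue. It stood at 229, 237 and 230 CPM in WT against 261, 269 and 243 CPM in TetAXXC. The 3 WT libraries were close together and all lay under the TetAXXC libraries. The log2 fold change was 0.15 with a standard error of 0.05 (edgeR, adjusted p = 0.0731, and 0.0255 with the block). Upper-quartile scaling also brought it under the threshold (edgeR, adjusted p = 0.0460).

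**Figure D3:**
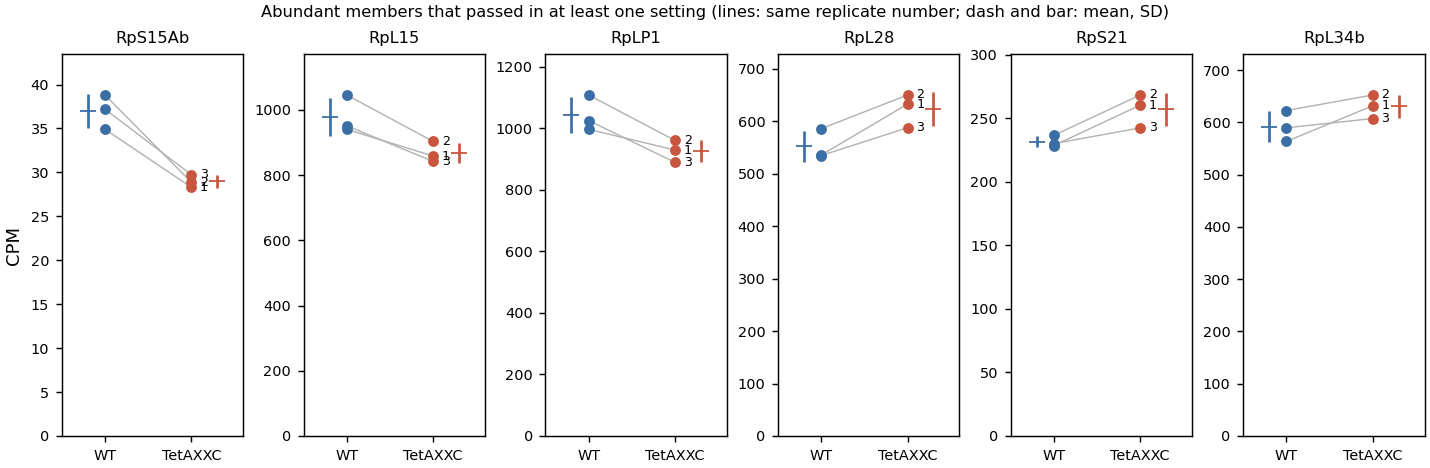
CPM of 6 members in the 3 WT and 3 TetAXXC libraries, with lines joining libraries of the same replicate number and, at the sides, the mean and SD of each genotype; each axis starts at 0. RpS15Ab, RpL15 and RpLP1 are lower and RpL28 and RpS21 higher in TetAXXC along all 3 lines, with log2 fold changes of -0.35, -0.17, -0.17, 0.18 and 0.15; RpL34b, at 0.09, passed the threshold, among the settings run, only where the trend with gene length was removed.

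Other abundant members of known role were closer to 0. RpS6 stood at 1063 ± 51.4 CPM in WT against 1023 ± 36.1 CPM in TetAXXC, with a log2 fold change of -0.05 and a standard error of 0.05. RpS27A and RpL40, the ubiquitin fusions, had log2 fold changes of -0.02 and 0.01 with standard errors of 0.08 and 0.05. RpL41 and RpL23, the highest members per length, had values of 0.06 and -0.09. Of the abundant members with larger values that were not called, RpLP0-like stood at 21.9, 23.3 and 26.0 CPM in WT and 18.7, 17.9 and 23.6 CPM in TetAXXC. Its TetAXXC replicate 3 lay above 2 of the WT libraries, while each TetAXXC library was below the WT library of its own number. The log2 fold change of -0.24 with a standard error of 0.13 was not called (edgeR, adjusted p = 0.287, and 0.0774 with the block). RpL39, with the shortest exons of all, had 254, 324 and 196 CPM in WT and 222, 239 and 224 CPM in TetAXXC. The WT libraries spread wider than the whole TetAXXC group, which lay inside their range, and the log2 fold change of -0.18 had a standard error of 0.16 and turned to 0.016 without WT replicate 2. A further 51 members, 31 of the large and 20 of the small subunit, lay between 341 and 1294 CPM per kilobase. Their groups overlapped in every case, their log2 fold changes ran from -0.09 to 0.09 with standard errors of 0.04 to 0.12, and their smallest adjusted p was 0.393 in edgeR.

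The largest differences were found among members at low level. RpL10Aa (FBgn0038281, chromosome 3R, 15037366 to 15038149, plus strand), the low paralog of the large-subunit gene RpL10Ab, had 14, 9 and 1 counts in WT replicates 1 to 3. It had 208, 79 and 74 counts in TetAXXC, and the groups were far apart. In CPM this was 0.429 ± 0.346 in WT and 6.30 ± 3.97 in TetAXXC (SD, n = 3 each), with a log2 fold change of 3.84 and a standard error of 0.77 (edgeR, adjusted p = 0.0209). Leaving out WT replicate 2 or 3 took the adjusted p of edgeR to 0.0911 and 0.0683.

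RpS19b (FBgn0039129, chromosome 3R, 23932729 to 23933530, minus strand), the germline paralog of RpS19a, had 9, 2 and 8 counts in WT. It had 152, 22 and 89 counts in TetAXXC, where replicate 2 was much the lowest library. The log2 fold change was 3.72 with a standard error of 0.83 (edgeR, adjusted p = 0.0280). With a single library omitted it was called only without TetAXXC replicate 2, and the adjusted p ranged from 0.0131 to 0.104.

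RpL22-like (FBgn0034837, chromosome 2R, 23246610 to 23247893, minus strand), the paralog of RpL22 known from the male germ line, was counted 12, 1 and 3 times in WT and 163, 15 and 119 times in TetAXXC. Its lowest TetAXXC library, replicate 2, was close to the highest WT library, replicate 1. The log2 fold change was 4.15 with a standard error of 1.06 (edgeR, adjusted p = 0.0417). Like RpS19b it was called, among the fits with a library omitted, only in that without TetAXXC replicate 2, and its adjusted p ranged from 0.0136 to 0.137.

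A further 4 members had counts but too few to be tested. RpL37b, the low paralog of RpL37a, was counted 4, 0 and 0 times in WT and 50, 1 and 43 times in TetAXXC. RpS10a, the low paralog of RpS10b, was counted 0, 3 and 0 times in WT and 46, 2 and 12 times in TetAXXC. In both, TetAXXC replicate 2 lay among the WT libraries. RpS28-like was counted 3, 1 and 0 times in WT and 16, 14 and 5 times in TetAXXC, with no overlap, and RpS28a 0, 0 and 0 times in WT and 1, 2 and 7 times in TetAXXC.

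**Figure D4:**
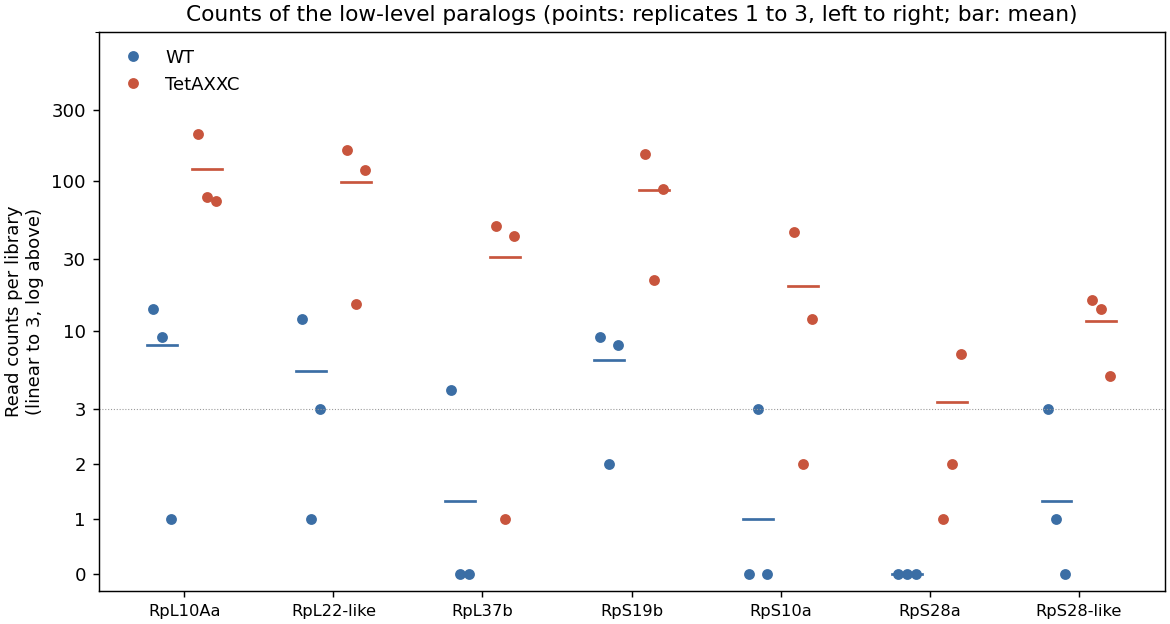
Read counts of 7 low-level members in each library (points, replicates 1 to 3 from left to right; bars, means), on an axis that is linear up to 3 counts and logarithmic above. RpL10Aa, RpL22-like and RpS19b are separated between the genotypes, and TetAXXC replicate 2 drops to 1 count for RpL37b and 2 for RpS10a.

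The testis markers were also higher in TetAXXC, and their order over the libraries matched that of these genes only in part. Of 42 listed, 35 were tested, 29 were higher in TetAXXC and 0 lower, where 12.1% and 3.17% of all genes tested were. The list had been written with earlier results of these libraries known. Their summed level was 210, 88.4 and 108 CPM in WT replicates 1 to 3 and 1949, 658 and 851 CPM in TetAXXC, and none of those found in the table was at 0 in every library. WT replicate 1 and TetAXXC replicate 1 were the highest libraries of their genotypes for these markers. In CPM they were also the highest for RpL10Aa, RpL22-like, RpL37b, RpS19b and RpS28-like. RpS10a was highest in WT replicate 2 and in TetAXXC replicate 1, and RpS28a was highest in TetAXXC replicate 3. Orders within WT rest on few counts, such as 9, 2 and 8 for RpS19b and 0, 3 and 0 for RpS10a. TetAXXC replicate 2, the lowest for the markers, was the lowest TetAXXC library in CPM for RpL10Aa, RpL22-like, RpL37b, RpS10a and RpS19b. For RpL10Aa it was nearly level with replicate 3, at 3.995 against 4.03 CPM (79 and 74 counts). RpS28-like was lowest in TetAXXC replicate 3 and RpS28a in replicate 1. Of 6 early germ cell markers tested, 1 was higher, bgcn (edgeR, adjusted p = 0.0393). Its adjusted p was 0.0944 to 0.143 when a library other than TetAXXC replicate 2 was left out. The part of testis transcripts in the values of these paralogs was not tested.

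Even where they rose, these genes were a small part of their families. Per kilobase, RpL10Aa made up 0.0530 ± 0.0446% of the RpL10A pair in WT and 0.779 ± 0.487% in TetAXXC (SD, n = 3 each). RpL22-like made up 0.0561 ± 0.0621% of the RpL22 pair in WT and 1.03 ± 0.784% in TetAXXC. RpS19b made up 0.102 ± 0.0617% of the RpS19 pair in WT and 1.40 ± 1.05% in TetAXXC, and its highest library, TetAXXC replicate 1, reached 2.40%. The main genes of these families kept their levels within the spread between replicates. RpL10Ab averaged 997 ± 76.5 CPM in WT against 984 ± 54.1 CPM in TetAXXC, RpL22 averaged 465 ± 24.2 and 456 ± 18.7 CPM, and RpS19a averaged 647 ± 24.1 and 633 ± 52.1 CPM. RpL37a, RpS10b and RpS28b had log2 fold changes of -0.03, -0.02 and 0.01, and none was called. For RpL22, 34.3% of the exon bases are shared with a long non-coding RNA gene on the same strand.

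In other families both genes were abundant, and their balance differed little between the genotypes. RpS14a and RpS14b are neighbours on the X chromosome that encode the same protein. RpS14b made up 33.6%, 35.1% and 33.8% of the pair per kilobase in WT and 32.2%, 34.0% and 35.2% in TetAXXC, and the groups overlapped. RpL34a made up 23.3%, 22.6% and 21.6% of the RpL34 pair in WT and 21.1%, 21.6% and 21.5% in TetAXXC. The WT libraries reached higher, and the ranges overlapped at their edge, with RpL34a at a log2 fold change of -0.0012 and RpL34b at 0.09. Of the assembly-factor relatives, RpL24-like made up 16.0 ± 0.560% of its summed level with RpL24 in WT and 16.3 ± 0.146% in TetAXXC. RpLP0-like stood at 3.68 ± 0.284% of the sum with RpLP0 in WT and 3.20 ± 0.613% in TetAXXC.

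The abundant members moved together from library to library. In WT replicate 2, 77 of the 83 lay above their own mean over the 6 libraries on the log2 scale, with a median deviation of 0.088. In TetAXXC replicate 2, 74 of 83 did, with a median of 0.056. In TetAXXC replicate 3 only 2 of 83 lay above their mean, and the median was -0.082. The other medians were -0.041 in WT replicate 1, -0.012 in WT replicate 3 and -0.005 in TetAXXC replicate 1. The medians of all 6320 genes at that level stayed between -0.014 and 0.017. In WT replicates 1 and 2 and TetAXXC replicates 2 and 3 the shift was larger in size than the genotype median of -0.024. The mitochondrial ribosomal protein genes at that level, 48 in number, shared the high WT replicate 2 (median 0.11) and the low TetAXXC replicate 3 (median -0.12) but not a high TetAXXC replicate 2 (median 0.007). The 31 proteasome genes at that level had medians between -0.045 and 0.045, with WT replicate 1 lowest.

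**Figure D5:**
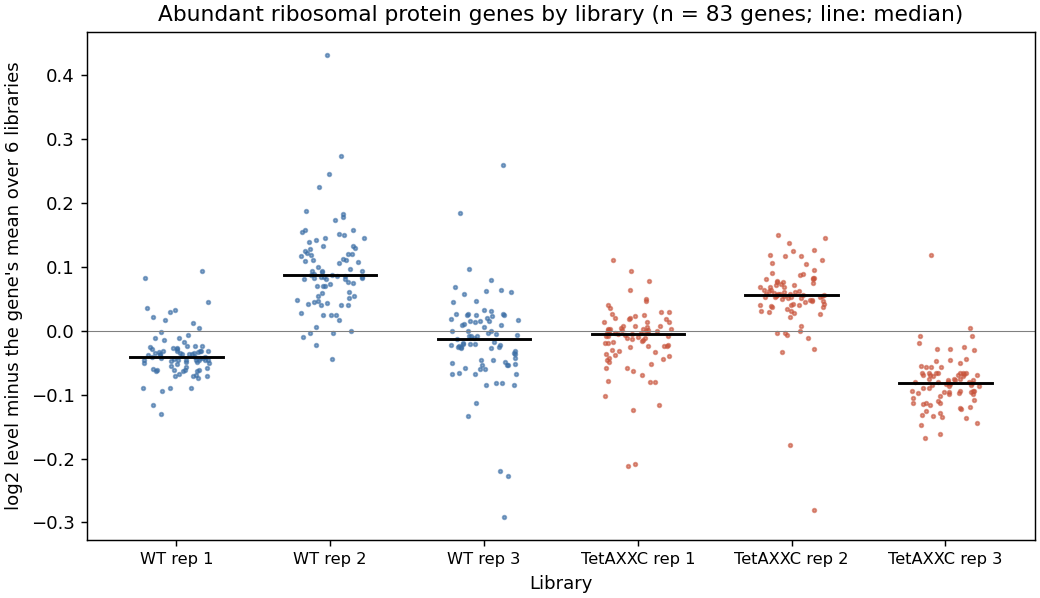
Deviation of each of the 83 abundant ribosomal protein genes from its own mean over the 6 libraries, on the log2 scale, by library; points are genes and the line is the median. The medians of replicate 2 are at 0.088 in WT and 0.056 in TetAXXC, above those of the other libraries, and TetAXXC replicate 3 is lowest at -0.082.

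Ribosomal protein genes are short. Their exons had a median of 901 bases and a range of 288 to 3835, against a median of 1401 over all genes in the table. The 27 shortest abundant members, with 288 to 754 bases, had a median log2 fold change of -0.023, the next 28 one of -0.025, and the 28 longest one of -0.028. In WT replicate 2 the median deviations of these 3 classes were 0.089, 0.11 and 0.071, and in TetAXXC replicate 3 they were -0.083, -0.083 and -0.080. In WT replicate 3 the class medians ran from -0.036 in the shortest to 0.010 in the longest. With each library's trend on gene length removed, 6 members were called higher and 3 lower, now with RpL28, RpL34b, RpS21, RpL15 and RpLP1, where 12.9% and 3.87% of all genes were.

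Many members carry snoRNA genes, which guide the modification of ribosomal RNA, in their introns. At least 1 snoRNA gene lay inside 28 of the 92 members (30.4%), 74 snoRNA genes in all, against 56 of 13791 other protein-coding genes (0.41%). RpS7, for example, held 7 snoRNA genes and RpL28 held 5. The median log2 fold change was -0.024 over the 28 hosts and -0.027 over the 55 other abundant members. The members are scattered over the genome, with 19 on chromosome arm 2L, 21 on 2R, 14 on 3L, 23 on 3R, 14 on X and 1 on chromosome 4. The median log2 fold change of the abundant members was -0.023 on 2L, -0.027 on 2R, -0.023 on 3L, -0.007 on 3R and -0.04 on X. The member on chromosome 4, RpS3A, had a value of -0.12 with a standard error of 0.06 (edgeR, adjusted p = 0.253). It was chosen after its values were seen, as was RpL13, at -0.12 (edgeR, adjusted p = 0.190), since both passed in a fit with the block and the length trend removed. Exons of 10 members overlap a gene on the same strand and those of 25 a gene on the other strand, and the strand setting of the counting is not given in the sources used here.

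The rest of the translation machinery was examined from lists chosen with earlier results known. Rack1, a scaffold protein of the small subunit, stood at 929 CPM in WT against 1009 CPM in TetAXXC, with a log2 fold change of 0.12, and sta, the small-subunit protein SA, at 1135 and 1105 CPM with -0.04. Neither was called by edgeR as fitted here (adjusted p = 0.173 and 0.774). Rack1 passed with the length trend removed (edgeR, adjusted p = 0.0378, and 0.0289 with the block as well). Of 26 translation initiation factor genes and 9 elongation and termination factor genes, 0 were called, with medians of 0.008 and -0.035. All 22 ribosome assembly genes listed were tested and 0 were called, with a median of -0.072. Of 4 RNA polymerase I genes matched, 15 regulators of growth and of ribosomal protein genes, and 6 non-coding snoRNA hosts tested, 0 were called. Over these 84 genes together, 7 had an unadjusted p under 0.05 in edgeR. DESeq2 called 2, Rack1 and bys, the latter named after its values were seen, limma-voom called 0, and edgeR with the block called 0. Over all genes tested the median log2 fold change was 0.004, and 12.1% were called higher and 3.17% lower by edgeR. The median was -0.019 over the 6320 genes of at least 4 log2 CPM. A fit of only those genes called 2.31% higher and 1.93% lower. The share of all genes at an unadjusted p under 0.05 was not counted.

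Mitochondrial ribosomal protein genes, of which 72 were tested, had a median log2 fold change of -0.086, and 1 was lower, mRpS2, with means of 19.9 and 15.7 CPM (edgeR, adjusted p = 0.0416). It was called in 7 of 16 other settings, with an adjusted p of up to 0.114. With the block, 1 was higher, mRpS17, and 2 lower, mRpS2 and mRpL54, of which mRpS17 and mRpL54 were named after their values were seen. Among 45 proteasome subunit genes tested the median was 0.026, 11 were higher and 0 lower, where 12.1% and 3.17% of all genes tested were. The 5 with the smallest adjusted p were Prosalpha4T2, Rpn13R, Prosbeta2R1, Prosbeta5R1 and Prosalpha6T, paralogs known from testis, with means under 1 CPM in WT and 1.52 to 5.81 CPM in TetAXXC. These 5 passed the filter on low counts only through TetAXXC, so the count of 11 is no measure of how often proteasome genes rose. None of the 5 was called without WT replicate 2 or without WT replicate 3.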

How the data were processed

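The authors deposited raw counts, whole numbers of reads assigned to each gene, for 3 WT and 3 TetAXXC libraries. Per the submitters' processing notes, Trimmomatic 0.39, HISAT2, SAMtools, featureCounts and DESeq2 were used, and the builds BDGP6 and dm6 are named. Per the labels' protocols, libraries were poly(A)-selected and stranded. Counts were tested with edgeR 4.0.16 (R 4.3.3): filterByExpr (minimum count 10, minimum total 15), TMM scaling and the two-sided quasi-likelihood test over 11198 genes. The common biological coefficient of variation was 0.189. Alternatives used DESeq2 1.42.0, limma 3.58.1 (voom), other scalings and filters, a replicate block, a length offset (loess of each library's log2 ratio on log2 length, span 0.5) and each library left out. The script was tested on simulated counts, with known changes planted only in genes of at least 4 log2 CPM. Those changes were larger than the differences of the abundant members, and no replicate effect was simulated. The simulation thus did not cover small differences or genes at low level. Deviations of same-numbered libraries from their group means correlated across genes at 0.652, 0.419 and 0.344, so the numbers were taken to pair the libraries. The pairing was inferred from the same counts and is least clear for replicate 3. WT replicate 3 also correlated with TetAXXC replicate 2, at 0.230. Over the 87 members the same-numbered values were 0.938, 0.863 and 0.385, while WT replicate 1 correlated with TetAXXC replicate 3 at 0.480. No replicates agreed within sampling noise (chi-square per degree of freedom 6.94 to 17.8), and intervals cover counting error only. Deviations by library used log2(CPM + 0.1).

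The members and lists were chosen with earlier results of these data known. Genes were named by rule: members past the threshold, the 5 highest and 5 lowest per kilobase, all paralog families, the 3 largest increases and decreases, and members of set roles. RpL13, RpL15, RpL28, RpS21 and RpS3A were added after their values were seen. One paralog family is not reported here. Promoter motifs and protein identity were not analysed here.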

Additional observations from a re-analysis of the deposited data

How the results depend on the processing

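Against 3 members higher and 1 lower, the other settings gave as higher 0 with limma-voom and among genes of at least 4 log2 CPM, 5 with DESeq2 and with the replicate block, and 6 with the length trend removed, with or without the block. As lower they gave 0 with limma-voom, 4 with DESeq2, 3 with the block, 3 with the length trend removed and 5 with both. Leaving out a library gave 0 to 5 higher and 0 to 1 lower, with 0 of either when WT replicate 2 or 3 was left out. Over all genes, 1707 passed, against 268 among genes of at least 4 log2 CPM, 130 with limma-voom, 2402 with DESeq2, 2362 with the block and 54 to 2095 without a library. All-gene shares called higher and lower were 15% and 6.47% with DESeq2, 12.9% and 3.87% with the length trend removed (1882 genes) and 16.4% and 5.14% with the block as well (2408 genes). The members' median log2 fold change ran from -0.087 to 0.018 over the settings. In each it moved by less than 0.068, the SD between replicates of the members' median level on the log2 scale. That SD is for single libraries, not for a fold change. The cause of these changes was not tested.

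Of 440 values of named genes with all libraries, 384 kept direction and call, 14 lost and 25 gained the call, and 17 changed sign without ever being called. With upper-quartile factors the log2 fold changes of RpL24-like, RpL34a, RpL7, RpS10b and RpS15 became 0.0079, 0.015, 0.014, 0.00080 and 0.0066. With TMM factors from the other genes, RpL34a and RpL7 became 0.0066 and 0.0056. Among genes of at least 4 log2 CPM, RpL10Ab, RpL24-like, RpL34a, RpL7, RpS10b and RpS15 became 0.00015, 0.011, 0.018, 0.017, 0.0040 and 0.0099. With the length trend removed, RpL34a and RpL7 became 0.00070 and 0.0086, and with the replicate block as well 0.00052 and 0.0085. With a library left out the sign changed for 20 genes, with lowest and highest log2 fold changes of -0.091 and 0.043 (RpL10Ab), -0.086 and 0.0043 (RpL22), -0.065 and 0.038 (RpL24-like), -0.071 and 0.039 (RpL34a), -0.10 and 0.016 (RpL37a), -0.37 and 0.016 (RpL39), -0.047 and 0.055 (RpL40), -0.057 and 0.12 (RpL41), -0.065 and 0.015 (RpL7), -0.088 and 0.0054 (RpLP0), -0.086 and 0.018 (RpLP2), -0.091 and 0.015 (RpS10b), -0.12 and 0.0024 (RpS14a), -0.15 and 0.00097 (RpS14b), -0.069 and 0.024 (RpS15), -0.11 and 0.024 (RpS15Aa), -0.13 and 0.012 (RpS19a), -0.099 and 0.051 (RpS27A), -0.070 and 0.069 (RpS28b) and -0.11 and 0.017 (sta). None of these 20 was called in any setting run.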
